A study of Rattus norvegicus with 145 samples.

Results

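Mybl2, Foxm1, E2f1, E2f3, E2f7, Rbl1 and Myc, transcription regulators of the cell division cycle, were followed in the livers of rats gavaged with acetamide. They are the 7 of 10 listed genes (with E2f2, E2f8 and Lin9) that had a row among the 17337 genes of the count tables; E2f2, E2f8 and Lin9 were not analysed here. The genes were picked by name with the dose responses of these same livers known, so every comparison of a dose with its vehicle is given for them as a description and not as a test.

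The study asked how the liver transcriptome follows the dose of acetamide. All rats received water by gavage, with or without acetamide, once a day, and the left liver lobe was taken. In experiment A, Hsd:WI males aged 9 to 10 weeks received daily doses of 0, 30, 100, 300 and 1000 mg/kg/day, abbreviated mkd, over 7 days. In experiment B, Crl:WI males and females aged 8 to 10 weeks received 0, 300, 500, 750, 1000 or 1500 mkd for 7 days (killed on day 8) or 28 days (killed on day 29). Each of the 29 groups held 5 rats, and each rat gave 1 library. The day 29 male vehicle rats carry the exposure label of experiment 1, while their titles and their count table place them in experiment B, where they were used.

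In a quiescent liver most hepatocytes rest outside the cell cycle. Cyclin D kinases phosphorylate the pocket proteins (Rb1, Rbl1, Rbl2). Phosphorylation of Rb1 frees activating E2F factors to switch on the genes of DNA replication. B-Myb (Mybl2), bound to the MuvB complex, and then Foxm1 drive the later genes of G2 and mitosis, while E2f7 and E2f8 close the G1/S programme again. Myc, an immediate early gene, promotes growth and ribosome synthesis and is induced in the liver within hours of partial hepatectomy.

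Gene-assigned reads numbered 15449716 to 39986531 per library. The trimmed mean of M-values (TMM) factors that scale the libraries ran from 0.735 to 1.91. Levels are given as CPM, the gene's count scaled to the TMM-adjusted size of its library. One library stood apart for these genes: replicate 3 of the day 29 males at 1500 mkd held 243 CPM of Mki67, the transcript of the Ki67 antigen, where its 4 companions held 3.07 to 14.1 CPM. Its label is that of the rat which the paper found to be an outlier in Ki67 labelling of the liver. Results that rest on this library are given with and without it. In whole liver, more cells expressing a gene and more RNA per cell cannot be told apart. The p-values of group comparisons weigh a difference against the spread between rats within groups.

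Promoter windows of RefSeq (build GRCr8, 250 bases before to 50 bases from the start site) were at hand for 4 of the 7 genes, Mybl2, E2f3, E2f7 and Rbl1, and were searched on both strands. The E2F cores searched were TTCCCGC, held by 4.21% of the 33469 rat promoter windows of this length, TTCGCGC, held by 1.51% of them, TTGCCGC, held by 2.26%, and TTGGCGC, held by 2.26%. At least 1 of these cores lay in 9.52% of the windows, the CHR element TTTGAA of cell cycle genes in 18.3%, and the E-box CACGTG bound by Myc in 6.42%. The counts were made on another build (Rn6), so these coordinates serve the sequences alone. The windows of Mybl2 (chr3:172124555-172124854, plus strand), E2f7 (chr7:48036653-48036952, plus strand) and E2f3 (chr17:34810166-34810465, plus strand) are shown because they hold, in that order, none of the letters searched, the most E2F cores, and E2F cores together with a CHR element; capitals mark the matches.
Mybl2: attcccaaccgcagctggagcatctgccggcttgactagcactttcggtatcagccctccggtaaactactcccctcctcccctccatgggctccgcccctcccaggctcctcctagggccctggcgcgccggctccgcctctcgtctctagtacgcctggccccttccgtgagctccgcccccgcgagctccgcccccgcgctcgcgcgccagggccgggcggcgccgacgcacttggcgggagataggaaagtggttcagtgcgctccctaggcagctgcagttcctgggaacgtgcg
E2f7: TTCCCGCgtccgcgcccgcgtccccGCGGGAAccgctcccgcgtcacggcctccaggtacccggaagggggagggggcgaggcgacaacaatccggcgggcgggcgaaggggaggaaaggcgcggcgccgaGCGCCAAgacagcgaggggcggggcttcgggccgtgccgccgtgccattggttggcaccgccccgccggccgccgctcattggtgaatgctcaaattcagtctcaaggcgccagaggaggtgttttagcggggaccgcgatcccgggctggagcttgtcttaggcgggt
E2f3: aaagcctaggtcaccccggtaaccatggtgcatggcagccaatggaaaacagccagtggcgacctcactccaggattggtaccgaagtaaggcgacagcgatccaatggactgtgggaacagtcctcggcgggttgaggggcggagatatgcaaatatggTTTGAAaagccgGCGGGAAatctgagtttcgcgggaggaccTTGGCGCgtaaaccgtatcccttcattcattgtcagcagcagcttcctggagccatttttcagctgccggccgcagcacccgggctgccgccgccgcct
The E2f7 window held 3 E2F cores, the first bases of which lay at -250, -225 and -119 from the start site. The E2f3 window held 2 cores at -78 and -49 and a CHR element at -90. Rbl1 (chr3:166289327-166289626, minus strand) held the core TTCGCGC at -17. None of the 4 windows held the E-box. A match describes the letters only, and the missing match in the Mybl2 window says nothing about which factors bind there.

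Mybl2, which encodes B-Myb, had the largest log2 fold change at the highest dose among the members tested in every table except the day 29 males. In the experiment A males the vehicle rats held 0.491, 0.980, 0.756, 0.843 and 0.492 CPM and the rats at 1000 mkd 6.32, 29.7, 5.03, 8.49 and 13.3 CPM. Every rat at 1000 mkd stood above every vehicle rat, and replicate 2 stood highest, for a log2 fold change of 4.14 ± 0.47 (± SE). Without that rat, whose TMM factor was the largest of all at 1.91, the log2 fold change was 3.54. Mean levels over 0, 30, 100, 300 and 1000 mkd were 0.712, 0.804, 0.936, 1.78 and 12.6 CPM.

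In the males of day 8 in experiment B the vehicle rats held 0.707, 0.257, 0.534, 1.03 and 0.375 CPM of Mybl2. The males at 1500 mkd held 4.77, 5.46, 2.62, 2.77 and 2.02 CPM, again without overlap (log2 fold change 2.62 ± 0.57). At 1000 mkd, the dose shared with experiment A, the day 8 males of experiment B held 1.14, 2.08, 0.154, 1.2 and 1.80 CPM, and this group overlapped its vehicle group. The levels at 1000 mkd thus differed between the experiments, which also differed in rat stock, age range and table, and these cannot be told apart.

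On day 29 the male vehicle rats held 0.626, 0.938, 0.561, 0.404 and 1.04 CPM of Mybl2 and the males at 1500 mkd 1.32, 1.12, 3.99, 0.586 and 0.619 CPM. These groups overlapped, and the log2 fold change of 1.11 ± 0.52 became 0.28 without replicate 3. The day 8 females held 1.16, 0.642, 0.382, 1.11 and 0.970 CPM as vehicle rats and 1.18, 14.3, 9.38, 5.02 and 1.60 CPM at 1500 mkd, all above the vehicle rats but spread more than 10-fold among themselves. The day 29 females held 0.778, 1.31, 0.712, 0.285 and 0.8 CPM as vehicle rats and 7.69, 5.81, 7.86, 7.01 and 2.26 CPM at 1500 mkd (log2 fold change 2.96 ± 0.47), with no overlap.

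Over the dose series of experiment B the female group means of Mybl2 left the vehicle mean at lower doses than the male ones. This difference in shape was not tested. On day 8 the mean Mybl2 level over 0, 300, 500, 750, 1000 and 1500 mkd was 0.852, 2.04, 2.97, 6.39, 5.03 and 6.30 CPM in females and 0.580, 0.506, 0.771, 1.66, 1.27 and 3.53 CPM in males. On day 29 the same series read 0.777, 0.983, 1.26, 2.62, 4.62 and 6.12 CPM in females and 0.714, 0.551, 0.673, 0.803, 1.5 and 1.53 CPM in males. In day 8 females the level was no higher at 1500 than at 750 mkd, whereas in day 29 females the group means climbed at each dose step. The experiment A males did not share the pattern of the experiment B males. Their mean at 300 mkd was 1.78 CPM against 0.712 CPM in vehicle rats, with 4 rats above every vehicle rat.

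Foxm1, the forkhead factor that activates the genes of mitosis, had smaller log2 fold changes than Mybl2 at the highest dose except in day 29 males, and a pooled SD within groups of 0.496 on the log2 scale. In experiment A the vehicle rats held 2.39, 1.60, 1.89, 3.28 and 2.46 CPM and the rats at 1000 mkd 5.10, 5.96, 4.05, 8.14 and 4.13 CPM (log2 fold change 1.23 ± 0.25). In day 29 females the level was 2.49, 2.85, 2.72, 1.88 and 1.80 CPM in vehicle rats and 7.17, 7.07, 7.75, 6.70 and 3.15 CPM at 1500 mkd, with a log2 fold change of 1.44 ± 0.20. All rats at the highest dose lay above all vehicle rats in both tables, although replicate 5 of the females, at 3.15 CPM, fell well below its companions. The same rat was lowest of its group in all 7 members and in Mki67.

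**Figure D1:**
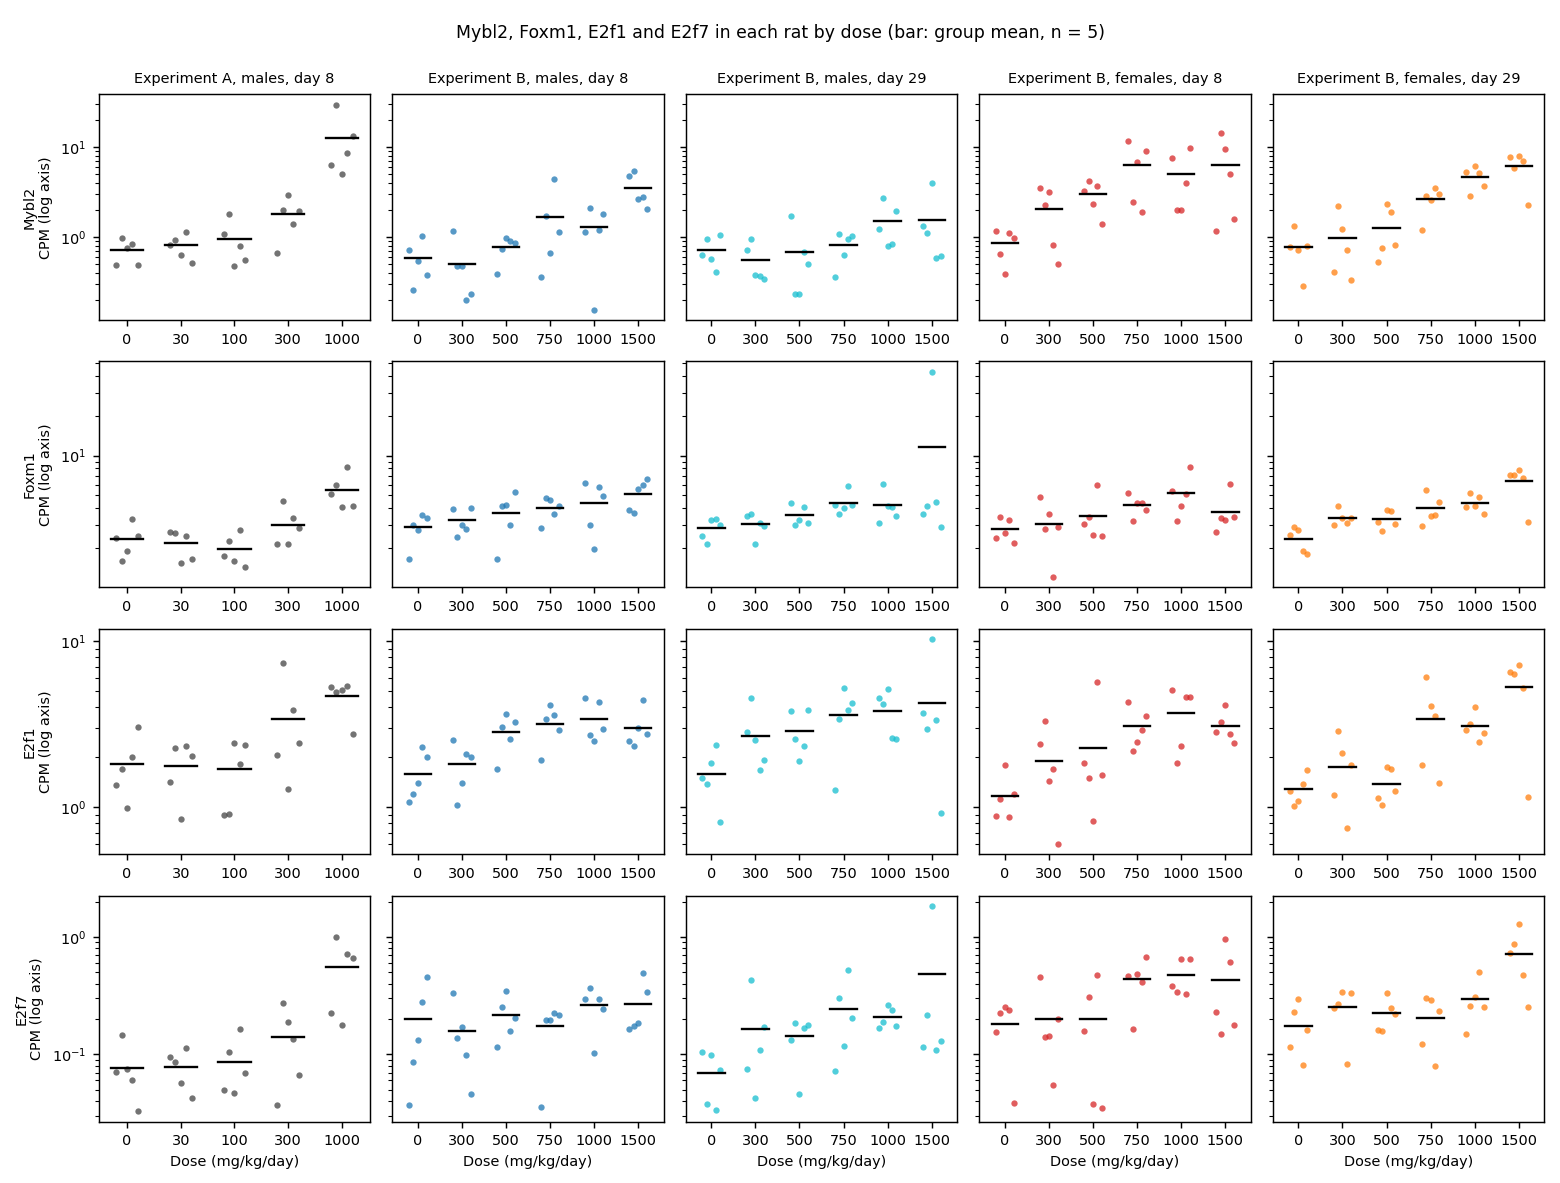
CPM of Mybl2, Foxm1, E2f1 and E2f7 (rows, log axis) against dose in mg/kg/day in the 5 tables (columns). Each point is 1 rat and each bar marks a group mean. Mybl2 at 1000 mkd in experiment A spans 5.03 to 29.7 CPM, and replicate 3 of the day 29 males at 1500 mkd stands alone at 43.3 CPM of Foxm1.

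In the day 29 males at 1500 mkd, Foxm1 stood at 3.61, 4.17, 43.3, 4.47 and 2.86 CPM against 2.43, 2.14, 3.27, 3.33 and 2.97 CPM in the vehicle rats. The log2 fold change of 2.05 ± 0.50 came to 0.35 without replicate 3, so most of it lay in that rat. On day 8 the males held 1.64 to 3.55 CPM as vehicle rats and 3.64 to 6.66 CPM at 1500 mkd, without overlap (log2 fold change 0.86 ± 0.29). The day 8 females at 1500 mkd held 2.64 to 6.05 CPM (log2 fold change 0.44 ± 0.30), and overlapped the vehicle range of 2.17 to 3.43 CPM.

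E2f1, the activating E2F of replication genes, was higher in mean level at the highest dose in all 5 tables. In experiment A the level was 1.37, 1.71, 0.983, 2.02 and 3.05 CPM in vehicle rats and 5.27, 4.92, 5.06, 5.37 and 2.76 CPM at 1000 mkd, and a single rat of the latter, at 2.76 CPM, overlapped a vehicle rat. The day 29 females held 1.24, 1.02, 1.09, 1.39 and 1.68 CPM as vehicle rats and 6.53, 6.33, 7.14, 5.26 and 1.15 CPM at 1500 mkd. This log2 fold change of 2.05 ± 0.39 included replicate 5 at a vehicle level.

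Day 8 females at 1500 mkd held 2.84, 3.25, 4.11, 2.77 and 2.43 CPM of E2f1 against 0.889, 1.12, 1.78, 0.867 and 1.2 CPM in vehicle rats. Their log2 fold change was 1.39 ± 0.42, and the groups did not overlap. The day 8 males, with 1.08 to 2.29 CPM in vehicle rats and 2.34 to 4.41 CPM at 1500 mkd, also did not overlap, at 0.93 ± 0.26 on the log2 scale. In day 29 males E2f1 was 1.5, 1.39, 1.85, 2.35 and 0.817 CPM in vehicle rats and 3.68, 2.97, 10.3, 3.33 and 0.928 CPM at 1500 mkd, and its log2 fold change of 1.43 ± 0.43 was 0.71 without replicate 3. At 1000 mkd the same males held 4.53, 4.19, 5.18, 2.61 and 2.57 CPM, every one above every vehicle rat.

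E2f3, the other activating E2F with a row, did not follow E2f1. Its log2 fold change at the highest dose lay between -0.48 and 0.14 over the 5 tables. Its lowest value was in day 29 males, with 6.12, 6.19, 7.06, 6.90 and 5.27 CPM in vehicle rats and 3.22, 4.65, 5.37, 5.20 and 4.18 CPM at 1500 mkd (log2 fold change -0.48 ± 0.21, not called). The vehicle and highest-dose ranges of E2f3 overlapped in all 5 tables.

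E2f7, an atypical E2F that represses G1/S genes, was the scarcest in counts and passed the low-count filter only in the 2 female tables. The day 29 females held 0.117, 0.229, 0.293, 0.0815 and 0.160 CPM as vehicle rats and 0.723, 0.869, 1.28, 0.472 and 0.255 CPM at 1500 mkd (log2 fold change 2.03 ± 0.42). Replicate 5 was again lowest and overlapped the vehicle rats. On day 8 the female log2 fold change was 1.16 ± 0.60, with 0.0388 to 0.255 CPM in vehicle rats and 0.148 to 0.964 CPM at 1500 mkd. In experiment A the vehicle rats held 1 to 4 counts of E2f7 each, and the rats at 1000 mkd 0.227, 1.00, 0.177, 0.721 and 0.660 CPM, all above the vehicle range of 0.0328 to 0.145 CPM. In day 29 males at 1500 mkd, replicate 3 held 1.84 CPM and the others 0.110 to 0.215 CPM.

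Rbl1, which encodes the pocket protein p107 and is itself an E2F target, was clearly higher in experiment A. Levels there were 2.14, 2.87, 1.93, 2.74 and 3.12 CPM in vehicle rats and 4.22, 9.86, 3.93, 8.25 and 5.04 CPM at 1000 mkd, without overlap (log2 fold change 1.29 ± 0.29). The day 29 females reached 4.65, 3.98, 7.09, 5.19 and 2.21 CPM at 1500 mkd from 1.51 to 3.22 CPM (log2 fold change 0.83 ± 0.33). In day 29 males the log2 fold change of 1.01 ± 0.50 turned to -0.57 without replicate 3, which held 16.1 CPM against 0.979 to 1.98 CPM in its companions. On day 8 the log2 fold change was 0.13 ± 0.22 in males and 0.50 ± 0.22 in females.

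Myc varied more between rats of a group than any other of the 7 genes, and its vehicle and highest-dose groups overlapped in all 5 tables. In experiment A the vehicle rats held 10.2, 6.35, 11.0, 23.6 and 9.84 CPM and the rats at 1000 mkd 15.5, 40.1, 18.3, 30.0 and 11.3 CPM (log2 fold change 0.91 ± 0.42). In experiment B the log2 fold changes at 1500 mkd ranged from 0.19 to 0.59, with SEs from 0.63 to 0.76. Among day 29 females the vehicle rats alone spanned 10.3 to 85.4 CPM, and those at 1500 mkd spanned 9.53 to 91.1 CPM. The pooled SD within groups was 1.10 on the log2 scale for Myc, larger than that of 99.1% of 11066 genes tested in all tables. For Mybl2 it was 0.864, for E2f1 0.629 and for E2f3 0.336, beside 0.301 for the median gene.

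**Figure D2:**
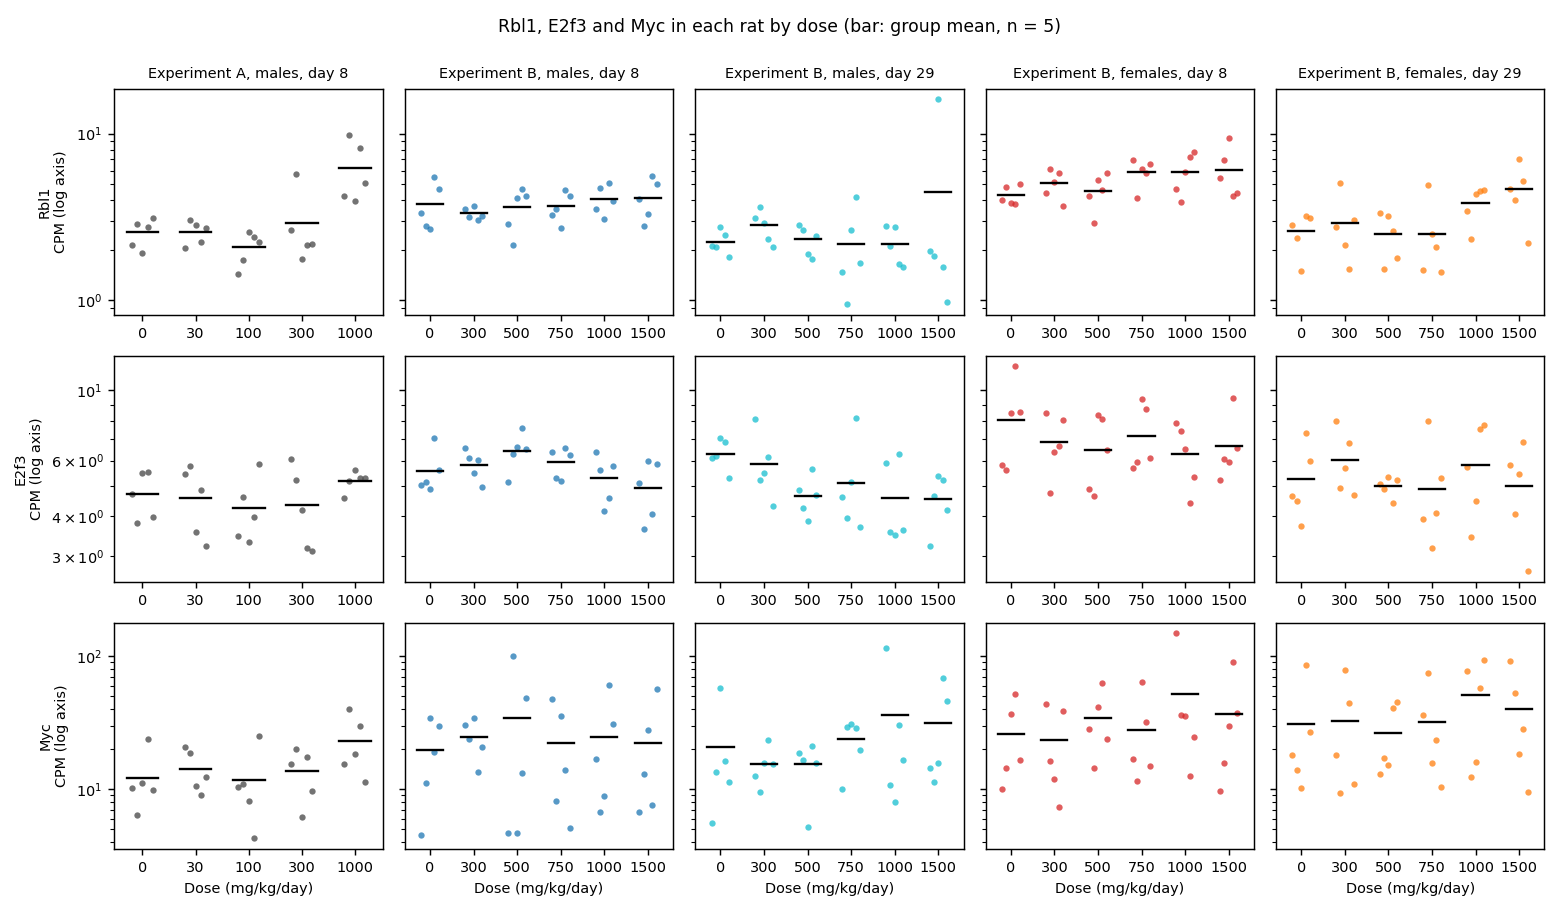
CPM of Rbl1, E2f3 and Myc (rows, log axis) against dose in mg/kg/day in the 5 tables (columns). Each point is 1 rat and each bar marks a group mean. Myc points scatter from 10.3 to 85.4 CPM among vehicle females of day 29, and the vehicle and highest-dose points of Myc overlap in each table.

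A gene was called when its fold change was at least 1.5 either way and its p, adjusted by Benjamini-Hochberg over all genes of the table in edgeR's quasi-likelihood test, did not exceed 0.05. At 1000 mkd in experiment A, E2f1, Foxm1, Mybl2 and Rbl1 were called up, 4 of the 6 members tested, where 14% of all 11323 genes tested were called up. Foxm1, Mybl2 and Rbl1 had every treated rat above every vehicle rat, as had 9.01% of all genes. These 4 calls were made in each of the 10 fits that left out 1 vehicle or 1000 mkd rat. The members were chosen on this contrast, so nothing is read from these shares, here or in the other tables.

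At 1500 mkd in day 29 females, E2f1, E2f7, Foxm1 and Mybl2 were called up, 4 of 7 members tested, where 9.55% of 11451 genes were. Foxm1 and Mybl2 had all treated rats above all vehicle rats, as had 3.51% of genes. All 4 calls held in each of the 10 fits without 1 rat. At 1000 mkd Foxm1 and Mybl2 were called up (1.23% of genes), and E2f1, Foxm1 and Mybl2 did not overlap with the vehicle group (2.79% of genes). The call of Foxm1 at 1000 mkd, at a log2 fold change of 0.89 ± 0.20, was lost without vehicle replicate 1, 4 or 5 or 1000 mkd replicate 2 or 4.

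In day 29 males at 1500 mkd E2f1 and Foxm1 were called up, 2 of 6, where 3.16% of 11279 genes were. In none of the 6 did all treated rats lie above all vehicle rats, as they did in 2.86% of genes. Without replicate 3 neither was called, and without vehicle replicate 2 neither was called. Leaving out vehicle replicate 1, 3, 4 or 5 or 1500 mkd replicate 1 or 2 kept Foxm1 and lost E2f1. With only the vehicle and 1500 mkd rats in the fit, 0 members were called. At 1000 mkd none of the 6 was called by edgeR (0.949% of genes were called up), 3 had an unadjusted p under 0.05, as had 26.2% of genes, and DESeq2's Wald test called 1, E2f1, while the fit with only the vehicle and 1000 mkd rats also called 1. E2f1 did not overlap with the vehicle group there, as 4.59% of genes did not.

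On day 8 calls were few. In males at 1500 mkd Mybl2 alone was called up, 1 of 6, where 0.142% of 11304 genes were, and E2f1, Foxm1 and Mybl2 had no overlap, as 1.45% of genes had none. The Mybl2 call held only without vehicle replicate 5 or 1500 mkd replicate 5 and was lost, at 0 members called, without any other of the 10 rats. At 1000 mkd none of the 6 was called by edgeR or DESeq2 (0% of genes were called up by edgeR), 3 had an unadjusted p under 0.05, as had 4.7% of genes, and E2f1 had no overlap, as 0.46% of genes had none.

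In day 8 females at 1500 mkd Mybl2 was called up, 1 of 7, where 0.522% of 11497 genes were, and E2f1 and Mybl2 had no overlap (1.65% of genes). That call held without 1500 mkd replicate 1 or 5 and was lost, at 0 members called, without any of the 5 vehicle rats or 1500 mkd replicate 2, 3 or 4, and with only the vehicle and 1500 mkd rats in the fit. At 1000 mkd E2f1 and Mybl2 were called up (1.03% of genes), at log2 fold changes of 1.66 ± 0.41 and 2.57 ± 0.66, and E2f1, E2f7 and Mybl2 had no overlap (1.82% of genes). Both calls were lost without any of the 5 vehicle rats or 1000 mkd replicate 1, 4 or 5.

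**Figure D3:**
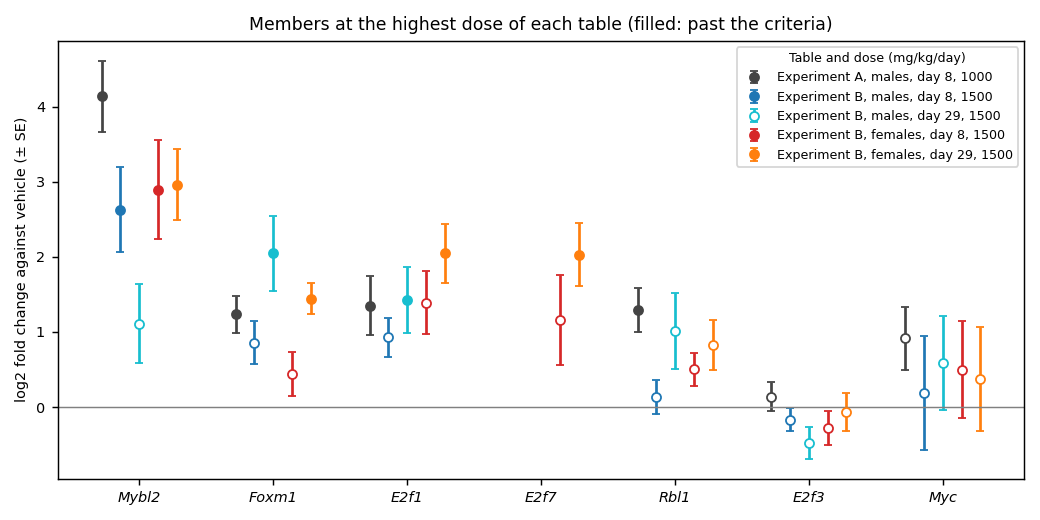
Log2 fold change against vehicle (± SE, from edgeR) of the 7 genes at the highest dose of each table, 1000 mkd in experiment A and 1500 mkd in experiment B, with filled points for calls. Mybl2 in experiment A is highest at 4.14, while the E2f3 points lie from -0.48 to 0.14 and no Myc or E2f3 point is filled.

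Below 1000 mkd edgeR called no member in any of the 15 comparisons, where 0.0317% of all genes tested, summed over the comparisons, were called up; 18 of the 96 member tests had an unadjusted p under 0.05, as had 7.66% of all gene tests. Without a call, all 5 treated rats still lay above all vehicle rats for Mybl2 in day 8 females at 500 mkd (0.565% of genes) and at 750 mkd, the latter with E2f1 (1.9% of genes). Foxm1 did so in day 29 females at 300 mkd (0.0961% of genes) and at 750 mkd (1.72% of genes), and in day 29 males at 750 mkd (3.29% of genes). At 300 mkd the female Foxm1 levels were 2.95, 4.13, 3.35, 3.10 and 3.37 CPM, just above the highest vehicle rat at 2.85 CPM.

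Vehicle rats of both sexes and both days were compared in 1 edgeR fit of the 40 vehicle and 1500 mkd rats of experiment B, a contrast that did not guide the choice of genes. None of the 7 members was called between female and male vehicle rats on day 8, when 7.24% of 11578 genes were called, or on day 29, when 10.8% were. None was called between day 29 and day 8 in males (0.0259% of genes) or in females (0.371% of genes). Only E2f3 in females had an unadjusted p under 0.05, as had 17.4% of genes, at 7.56 ± 2.38 CPM (SD, n = 5) on day 8 and 5.20 ± 1.47 CPM on day 29. This difference of -0.54 ± 0.22 on the log2 scale, with 3 of 5 day 29 rats below every day 8 rat, had an adjusted p of 0.201 by edgeR. DESeq2 called no member in the same 4 contrasts. Of all genes it called 930 between the sexes on day 8 and 1397 on day 29, and 8 between days in males and 164 in females. By its unadjusted p, 1 member lay under 0.05, in females between days.

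The response to 1500 mkd was then compared between sexes and between days in the same fit. Since the doses that guided the choice of genes enter these differences, they are not independent of that choice. None of the 7 members was called in any of the 4 contrasts, in each of which edgeR called 0% of genes. Mybl2 had the only unadjusted p under 0.05 between the sexes, a female response larger by 1.85 ± 0.77 on the log2 scale on day 29 (adjusted p = 0.261 by edgeR), with 5 of 5 treated females above all vehicle females and 3 of 5 treated males above all vehicle males. On that day 14.8% of genes had an unadjusted p under 0.05. Between days in males E2f7 alone had one, where 3.3% of genes had, but it failed the low-count filter of both male tables of experiment B (1 to 3 counts in each vehicle male of day 29), so its difference is not read. DESeq2 called no member either. Of all genes it called 1 between the sexes on day 8 and 32 on day 29, and 3 between days in males and 2 in females. By its unadjusted p, 1 member lay under 0.05 between the sexes on day 29 and 2 between days in males.

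The day 29 sex difference depended on replicate 3 of the males. That rat was singled out for its high levels of these same genes. Leaving it out lowers the male response of Mybl2 and Rbl1, so the adjusted p-values that follow are a description and not a test. Of the 40 fits of this contrast that left out 1 rat, only the fit without this rat called a member. Without it, edgeR called Mybl2, with a female response larger by 2.65 on the log2 scale (adjusted p = 0.0382), and Rbl1, by 1.36 (adjusted p = 0.0415), 2 of the 7 members, where that fit called 4.44% of 11622 genes. For Rbl1, 4 of 5 treated females and 0 of the remaining 4 treated males lay above all their vehicle rats, and for Mybl2 5 of 5 and 2 of 4. Foxm1 then differed by 1.06 (adjusted p = 0.0606) and E2f1 by 1.3 (adjusted p = 0.104), again by edgeR. The change of the Foxm1 response in males from day 8 to day 29 turned from 1.18 to -0.48 without the same rat.

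Whether the genes moved together from rat to rat was asked of all rats of the 29 groups after the mean log2 CPM of each dose group was subtracted, which removes the dose differences used in the choice. Of 28 relations, the 21 pairs of members and each member with Mki67, 18 had an adjusted permutation p under 0.05 for Pearson's r and 17 for Spearman's rho (100000 permutations within groups, two-sided, smallest possible p 1e-05). Of the 18, 14 were positive in each of the 5 tables. Foxm1 followed Mki67 most closely, with r = 0.79 and rho = 0.70 (permutation p = 1e-05 for both, the smallest the permutations can give; adjusted p = 2.55e-05). The r was 0.71 without replicate 3 of the day 29 males and 0.73 without the 2 rats farthest from the median, and ran from 0.53 to 0.89 over the tables.

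E2f1 with Mki67 gave r = 0.67 and rho = 0.64, Rbl1 with Mki67 0.61 and 0.49, E2f7 with Mki67 0.60 and 0.52, and Mybl2 with Mki67 0.48 and 0.45, all at the same adjusted permutation p of 2.55e-05. Without the 2 rats farthest from the median these r were 0.63, 0.46, 0.52 and 0.45. E2f7 passed the low-count filter only in the female tables, so low counts limit its r in males. Within day 8 and day 29 females E2f7 with Mki67 gave r = 0.61 and 0.50. Mybl2 thus tracked Mki67 within groups less closely in value than Foxm1 did, a difference between coefficients that was not tested. Its r with Mki67 ran from 0.15 to 0.73 over the tables.

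Among the members, Foxm1 with E2f7 gave r = 0.65 and rho = 0.56, and E2f1 with Rbl1 0.62 and 0.57 (adjusted permutation p = 2.55e-05 for each). Without the 2 extreme rats their r were 0.55 and 0.57, and without replicate 3 of the day 29 males 0.56 and 0.59. In the female tables, where E2f7 passed the low-count filter, Foxm1 with E2f7 gave r = 0.66 on day 8 and 0.67 on day 29. Mybl2 with Foxm1 gave r = 0.44 and rho = 0.39 (adjusted permutation p = 2.55e-05), 0.40 without the 2 extreme rats, and ranged in r from 0.28 to 0.63 over the tables. E2f3 and Myc, the members with no call at the highest dose, correlated with each other, with r = 0.52 and rho = 0.53 (adjusted permutation p = 2.55e-05), 0.49 without the 2 extreme rats and 0.21 to 0.81 over the tables. Against Mki67, E2f3 gave r = 0.18 (permutation p = 0.0381, adjusted 0.0553) and rho = 0.14 (permutation p = 0.133, adjusted 0.171). Myc with Mki67 gave r = 0.13 (permutation p = 0.164, adjusted 0.2) and rho = 0.16 (permutation p = 0.0851, adjusted 0.119). Myc with Mybl2 gave r = -0.02 (permutation p = 0.843, adjusted 0.874) and rho = -0.05 (permutation p = 0.56, adjusted 0.627).

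**Figure D4:**
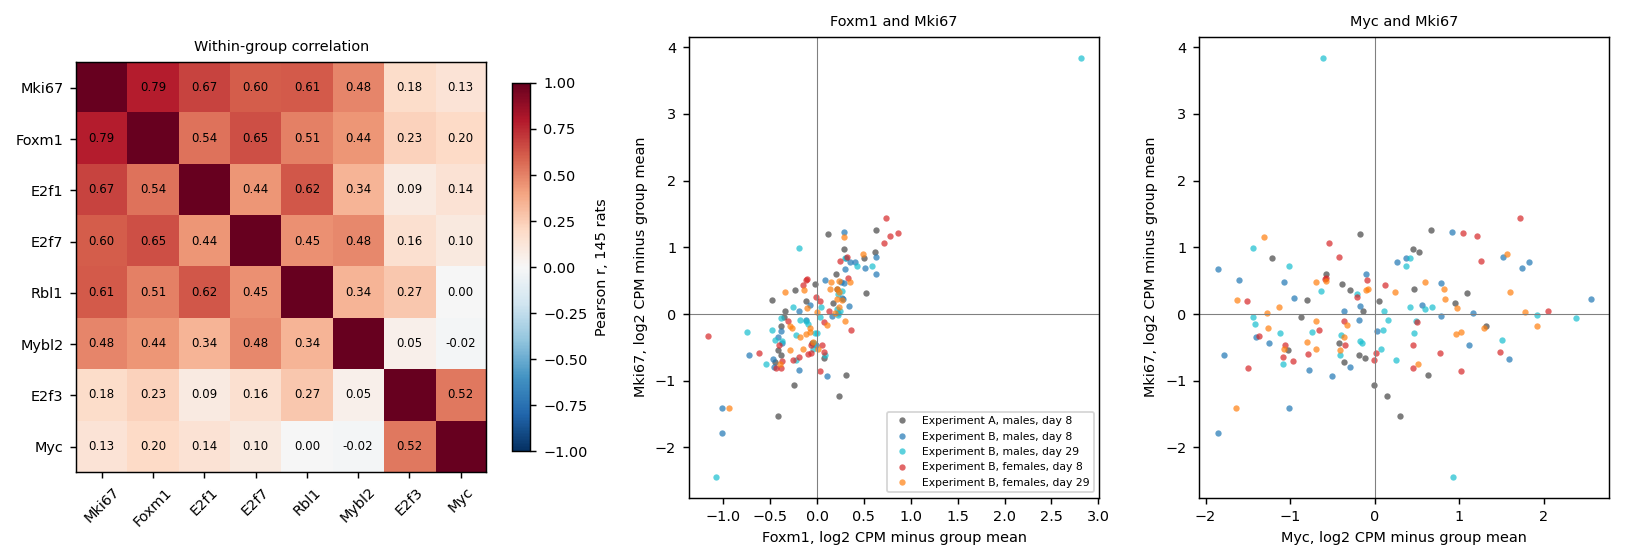
Left, Pearson r over all rats between log2 CPM minus the group mean for the 7 genes and Mki67. Right, each rat's deviation in Mki67 against its deviation in Foxm1 and in Myc, coloured by table. Foxm1 and Mki67 lie along a line (r = 0.79), and the square of E2f3 with Myc (r = 0.52) is darker than those of E2f3 and Myc with Mki67 (0.18 and 0.13).

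The genes most like each of 4 members in these deviations differed between members, given as a description over all rats and 11060 candidate genes. Closest to Foxm1 were Espl1 (separase, r = 0.85), Plk1 (a mitotic kinase, 0.84) and Cdc20 (an activator of the anaphase-promoting complex, 0.82). Closest to E2f1 were 3 subunits of the replicative helicase, Mcm6 (0.90), Mcm5 (0.87) and Mcm3 (0.86). Closest to Myc were Ppp1r15a (0.82), a stress-induced phosphatase subunit, Irs2 (0.82), an insulin signalling adaptor, and Slc38a2 (0.80), an amino acid transporter. Closest to Mybl2 were Lama5 (a laminin chain, 0.63), Ankrd13d (0.62) and Abcb1b (a drug efflux transporter, 0.60), none of them a cell cycle gene by textbook role. Mki67 ranked 17 for Foxm1, 48 for E2f1, 58 for Mybl2 and 3077 for Myc.

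The genes these factors act on were counted in lists drawn up from textbook roles with earlier results known, without a set test. Of 37 tested G2 and mitosis genes (targets of Mybl2 and Foxm1), 36 were called up in experiment A at 1000 mkd and 34 in day 29 females, 35 in day 29 males, 5 in day 8 females and 2 in day 8 males at 1500 mkd. Their median log2 fold change was 1.84, 2.61, 3.46, 1.71 and 1.56 in that order, where the median over all genes lay between -0.0039 and 0.07. Without replicate 3 the day 29 male count was 10, and with only the vehicle and 1500 mkd rats in the fit it was 0, while DESeq2 called 24. That fit gave 1 in day 8 males and 0 in day 8 females, where DESeq2 called 19 and 24. The day 8 male calls were Tacc3 and Tpx2, both spindle proteins, and the count ran from 0 to 22 over the fits without 1 rat, with 22 reached without vehicle replicate 5. The day 8 female calls were Ccnb1, Ckap2, Kif11, Ttk and Mki67, and the count was 20 without 1500 mkd replicate 1, 17 without replicate 5 and 0 without any of the other 8 rats. Examples in day 29 females were the kinases Melk (log2 fold change 3.45 ± 0.58) and Ttk (3.26 ± 0.55) and the ubiquitin-conjugating enzyme Ube2c (3.41 ± 0.50).

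Of 38 tested G1/S genes (targets of E2F), 21 were called up in experiment A, 27 in day 29 females, 12 in day 29 males, 1 (thymidine kinase, Tk1) in day 8 males and 0 in day 8 females. DESeq2 called 17 in day 29 males, 5 in day 8 males and 7 in day 8 females. With only the vehicle and 1500 mkd rats in the edgeR fit, the counts were 15 in day 29 females, 1 in day 29 males, 0 in day 8 males and 2 in day 8 females. In day 29 females they included Rrm2, a ribonucleotide reductase subunit (3.60 ± 0.69), Mcm5 (2.91 ± 0.50) and the chromatin assembly subunit Chaf1b (2.78 ± 0.48). The day 29 male count was 1 without 1500 mkd replicate 3, 5 to 7 without vehicle replicate 1, 2, 3 or 5, and 19 and 21 without 1500 mkd replicate 4 and 5. Among 22 Myc targets of ribosome synthesis and metabolism, in contrast, edgeR called up Nop58, a nucleolar protein (0.64 ± 0.18), in day 29 females and Nme1, a nucleoside diphosphate kinase (0.69 ± 0.12), in day 29 males, and called down Gnl3 and Ldha in experiment A. The Nop58 count was 0 without vehicle replicate 4 or 5 or 1500 mkd replicate 2 or 3, and with only the vehicle and 1500 mkd rats in the fit, and the day 29 male count 0 without vehicle replicate 3.

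Of 10 tested partners of the pocket proteins and MuvB, only Mybl1 (A-Myb), the paralogue of Mybl2, was called up. Its log2 fold change was 2.72 ± 0.36 in experiment A, 2.62 ± 0.54 in day 8 females and 1.61 ± 0.45 in day 29 females, all called, and 1.5 ± 0.46 and 1.14 ± 0.51 in day 8 and day 29 males, not called. The day 8 female call held, of the fits without 1 rat, only without 1500 mkd replicate 1 or 5, and was lost with only the vehicle and 1500 mkd rats in the fit. Tfdp2, an E2F dimer partner, was called down in experiment A (-0.62 ± 0.20). Of 9 Myc network genes only Mxd3 was called, up in day 29 males (2.40 ± 0.58), with 0 called without vehicle replicate 2 or 1500 mkd replicate 3, or with only the vehicle and 1500 mkd rats in the fit. Of 10 cyclin D genes, their kinases and CDK inhibitors, 4 were called up in experiment A (Ccnd1, Ccnd2, Cdkn2b and Cdkn2c), 2 in day 29 males (Cdkn1c and Cdkn2c) and 3 in day 29 females, namely the inhibitors Cdkn1a (2.20 ± 0.53) and Cdkn2c (1.97 ± 0.25) and the cyclin Ccnd1 (0.99 ± 0.26). The count in experiment A was 2 without vehicle replicate 1, 2, 3 or 4 or 1000 mkd replicate 2 or 4, and in day 29 males 1 without vehicle replicate 2 or 4 or 1500 mkd replicate 3, or with only the vehicle and 1500 mkd rats in the fit.

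**Figure D5:**
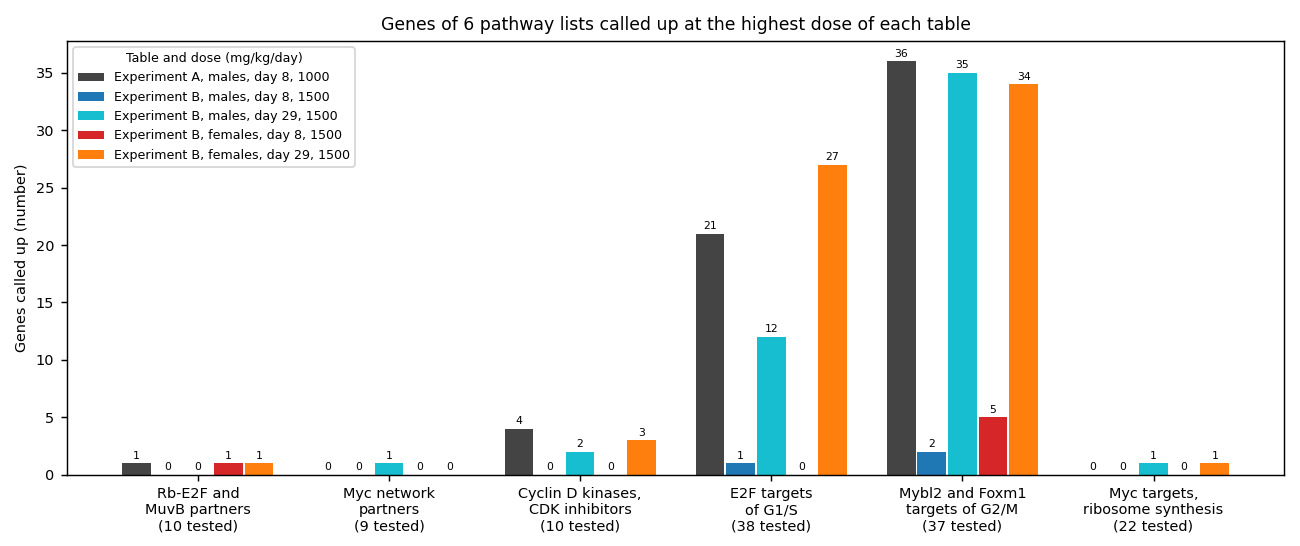
Number of genes called up at the highest dose in each of 6 gene lists (x axis, with the number tested) in the 5 tables; bars start at 0. The G2 and mitosis list reaches 34 to 36 of 37 genes in experiment A, day 29 males and day 29 females, and the Myc target list at most 1 of 22. The 35 genes of day 29 males were 10 without replicate 3 and 0 with only the vehicle and 1500 mkd rats in the fit.

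Markers of other liver cells were called at the highest dose in experiment A and in day 29 females. At that dose 14% of all genes tested in experiment A were called up and 7.45% down. In day 29 females 9.55% of all genes were called up and 3.54% down. In experiment A at 1000 mkd 8 of 12 tested lymphocyte markers were called up, and their summed level was 8.02 to 9.07 CPM in vehicle rats and 10.1 to 27.1 CPM at 1000 mkd. Macrophage markers (8 of 12 called up) summed to 599 to 1681 CPM in vehicle rats and 1401 to 2492 CPM at 1000 mkd, and 4 of 9 endothelial markers were called up. Of 10 hepatocyte markers 4 were called down, their sum being 269784 to 358308 CPM in vehicle rats and 86475 to 265139 CPM at 1000 mkd. In day 29 females at 1500 mkd 3 of 10 lymphocyte markers, 4 of 12 macrophage and 2 of 9 endothelial markers were called up. Of 7 tested erythroid markers 3 were called down in both groups, and Hba1 and Gata1 were at 0 counts in every rat of these vehicle and highest-dose groups. In day 8 males and females of experiment B no marker of any list was called at 1500 mkd. Few genes of any kind were called there, 0.177% of all genes either way in males and 0.705% in females. Replicate 3 of the day 29 males held the highest lymphocyte sum (11.3 CPM) and endothelial sum (349 CPM) of its group and the lowest hepatocyte sum (126032 CPM). The part of other cells in the levels of Mybl2, Foxm1, E2f1, E2f7 and Rbl1 was not tested. In every rat the hepatocyte markers, at 86475 CPM or more, outweighed every other list, at 2630 CPM or less, as the liver label has it.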

How the data were processed

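Liver RNA of 5 rats per group was sequenced. According to the labels and the study's methods, the authors trimmed the reads with Trimmomatic, aligned them with Bowtie2 to the rat genome (Rn6) and counted them per gene with HTSeq; the deposited values are raw counts per gene and rat in 5 tables. Lines that name no gene, 35.5% to 67.1% of the counts of a library in experiment B, were left out.

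Each table was analysed apart with edgeR 4.0.16 in R 4.3.3 on the deposited counts, with TMM scaling, the filterByExpr low-count filter, the quasi-likelihood F-test over all dose groups and Benjamini-Hochberg adjustment. Sexes and days were compared in 1 fit of the vehicle and 1500 mkd rats of experiment B. Correlations used log2 CPM with a prior count of 2. Alternatives were DESeq2 1.42.0, its size factors, no filter, a replicate block, only 2 groups per fit and each rat left out. For sexes and days, 1 further alternative fitted all 24 groups of experiment B. The code was tested on simulated data.

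The members and gene lists were chosen with earlier results of these data known. Genes named from a list were the 3 with the largest absolute log2 fold change among those called at 1500 mkd in day 29 females with a mean of at least 1 CPM. Other list genes were named after their values were seen, as the few calls behind a small count. No 2 libraries held identical counts. E2f2, E2f8 and Lin9 were not analysed here.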

Additional observations from a re-analysis of the deposited data

Results flagged for a closer look

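In 12 of 98 groups of 5 rats (7 members in the vehicle, 1000 and 1500 mkd groups), the highest or lowest rat stood apart by Dixon's ratio above 0.71. For normally distributed values chance alone marks about 1 group in 20. The ratio was taken on untransformed CPM and the members share the same rats, so no excess over chance is read from the 12. Replicate 3 of the day 29 males at 1500 mkd held 3.99 CPM of Mybl2 (others 0.586 to 1.32), 43.3 CPM of Foxm1 (2.86 to 4.47), 1.84 CPM of E2f7 (0.110 to 0.215) and 16.1 CPM of Rbl1 (0.979 to 1.98). Foxm1 was high, at 6.05 CPM, in replicate 4 of the day 8 females at 1500 mkd (2.64 to 3.44), and low, at 3.15 CPM, in replicate 5 of the day 29 females at 1500 mkd (6.70 to 7.75). E2f1 was low, at 2.76 CPM, in replicate 5 of experiment A at 1000 mkd (4.92 to 5.37).

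Single rats stood high in Myc among vehicle rats, at 23.6 CPM in experiment A (6.35 to 11.0), 57.3 CPM in day 29 males (5.53 to 16.3) and 85.4 CPM in day 29 females (10.3 to 26.8). At 1000 mkd, Myc stood at 115 CPM in 1 day 29 male (8.05 to 30.3) and at 149 CPM in 1 day 8 female (others up to 36.3).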

How the results depend on the processing

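The 4 members called in experiment A and the 4 in day 29 females at the highest dose numbered 4 to 5 and 3 to 5 under every alternative run. Elsewhere the counts moved. DESeq2 called 2 members in day 8 males, 2 in day 8 females at 1500 mkd and 1 in day 29 males at 1000 mkd, and called up 26 pathway genes in day 8 males (3 by edgeR) and 33 in day 8 females (6 by edgeR). DESeq2's size factors in edgeR gave 6 pathway genes up in day 8 males. With only the vehicle and tested dose in the fit, members called were 1 in day 29 males at 1000 mkd and 0 at 1500 mkd, and 0 in day 8 females at 1500 mkd; pathway genes called up were 1 in day 8 males, 3 in day 29 males (51 otherwise) and 2 in day 8 females, and called down 1 in experiment A (3 otherwise).

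The labels do not say that a replicate number marks a shared cage, day or batch. Of 25 same-numbered vehicle and highest-dose pairs, 15 had a correlation of deviations over 0.1 and 13 rats correlated best with their own number (4 of 5 in day 8 males for both). In experiment A replicate numbers give the order of rats within a group. At 1000 mkd they differ from the numbers in the labels, so the 5 pairs there join different label numbers (2 over 0.1 and 2 best matches). These values are a hint from the data and not the design, so the reported fits have no block. With the replicate block, members called were 0 in day 29 males at 1500 mkd and 0 in day 8 females at 1000 and 1500 mkd, and pathway genes called up were 9 in day 8 males and 0 in day 8 females.

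Leaving out 1 rat gave 0 to 1 members called in day 8 males at 1500 mkd, 0 to 2 in day 29 males at 1500 mkd, 0 to 2 and 0 to 1 in day 8 females at 1000 and 1500 mkd, and 1 to 2 in day 29 females at 1000 mkd. Pathway genes called up ranged from 0 to 26 in day 8 males, 13 to 61 in day 29 males and 0 to 25 in day 8 females, and called down from 0 to 4 in experiment A and 0 to 1 in day 29 females. Members differing in response between the sexes on day 29 numbered 0 to 2. The Foxm1 response difference between days in males ranged from -0.48, reversed without replicate 3 of the day 29 males, to 1.42. With all 24 groups of experiment B in 1 edgeR fit, no member was called between sexes or days. For the responses, that fit called 52 of all genes between the sexes on day 29 and 2 between days in females. By its unadjusted p, 1 member lay under 0.05 between the sexes on day 29, 2 between days in males and 1 in females.

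Relations past adjusted p 0.05 numbered 18 over all rats, 4 within experiment A, 10 within day 8 males and 8 within day 8 females. The sign of r reversed within experiment A for Mybl2 with E2f1 (-0.24) and Myc (0.0123), Rbl1 with Myc (0.37) and E2f3 with Mki67 (-0.25). It reversed within day 29 males for Myc with Foxm1 (-0.16), E2f1 (-0.0031), E2f7 (-0.0722) and Mki67 (-0.21). Within day 8 females it reversed for Mybl2 with E2f3 (-0.11) and Myc (0.0702), Foxm1 with Rbl1 (-0.0435), E2f3 with E2f1 (-0.19) and Rbl1 (-0.27), and E2f7 with Rbl1 (-0.0302). Within day 29 females it reversed for Myc with Mybl2 (0.0356), E2f7 (-0.0701) and Rbl1 (0.17). Rbl1 with Myc also reversed without the 2 extreme rats (0.0434) and without replicate 3 of the day 29 males (0.0312). The cause of these changes was not tested. Low counts limit E2f7, at 1 to 4 reads in vehicle males of experiment A, and 5 rats per group limit every contrast.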
